A study of Mus musculus with 15 samples.

Results

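Hearts of mice given angiotensin II (AngII) together with a treatment named QDG were compared with hearts of mice given AngII alone. The comparison used 10 of the 15 libraries of the study, the 5 labelled AngII and QDG (AngII+QDG below) against the 5 labelled AngII, and 12245 of 12387 named genes passed the filter on low values (at least 0.5 FPKM in at least 5 libraries). FPKM scales fragments by transcript length and by the size of the library, so levels of different genes can be set side by side. All mice were males of the inbred strain C57BL/6, and whole heart tissue was the source of RNA. The remaining 5 libraries came from Control mice and entered the same statistical fit, so their spread also enters the errors and p-values below. AngII mice were infused with AngII, and AngII+QDG mice received AngII and QDG, so every heart in the comparison was exposed to AngII. There was no group given QDG alone. The sources used here do not give what QDG stands for, the doses, the duration, the order of the treatments or the ages of the mice.

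AngII is the effector peptide of the renin-angiotensin system. Through its type 1 receptor, a G protein-coupled receptor, it constricts vessels and raises blood pressure, and in the heart sustained exposure is known for cardiomyocyte enlargement, return of fetal genes such as natriuretic peptides and skeletal actin, activation of fibroblasts and deposition of collagen. A treatment added to AngII can therefore be read out on these genes, on vascular and inflammatory genes, and on metabolism.

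No gene was called different between AngII+QDG and AngII hearts. The test, limma on log2(FPKM + 1) with Benjamini-Hochberg adjustment at 0.05 over all genes, called 0 of 12245 genes (0.0%). A second method, limma voom on fragment numbers recovered from the FPKM values, also called 0. At an unadjusted p under 0.05 there were 472 genes (3.85%) with the first method and 444 with voom. Of the 472 genes, 175 had higher estimates (1.43% of all genes) and 297 lower estimates (2.43%) in AngII+QDG. The share with higher estimates, 37.1%, was 51.4% without the library AngII 5, 55.2% with mitochondrial genes left out of the scaling and 44.5% after quantile normalization. The smallest adjusted p was 0.374. For 134 genes (1.09%) the 5 and 5 libraries did not overlap, 45 of them higher (0.367%) and 89 lower (0.727%) in AngII+QDG. Against Control, the same fit called 1659 genes (13.5%, of which 12.1% higher and 1.43% lower) in AngII and 2279 genes (18.6%, of which 15.5% higher and 3.14% lower) in AngII+QDG. These 3 comparisons share libraries, so their counts are not independent. Replicates are samples from separate mice as far as the design text gives 5 mice per group. The p-values rest on the spread within all 3 groups, Control included. In a fit of the AngII and AngII+QDG libraries alone, 0 genes were called and 778 had an unadjusted limma p under 0.05.

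The median standard error of the log2 difference was 0.18, and the median 95% interval reached 0.39 to each side. Errors and intervals here and below use the spread within groups over all 15 libraries, Control included. For 10394 genes (84.9%) the interval lay within 1 log2 unit of 0, and for 5549 genes (45.3%) within 0.5. Among the 3550 genes averaging 10 FPKM or more over both groups, for which the added 1 hardly compresses the scale, the shares were 86.9% and 53.2%. The median difference of all genes was -0.02, with 5498 genes above 0 and 6747 below. In 94 genes the estimate was at least 1 log2 unit, 52 higher and 42 lower.

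**Figure D1:**
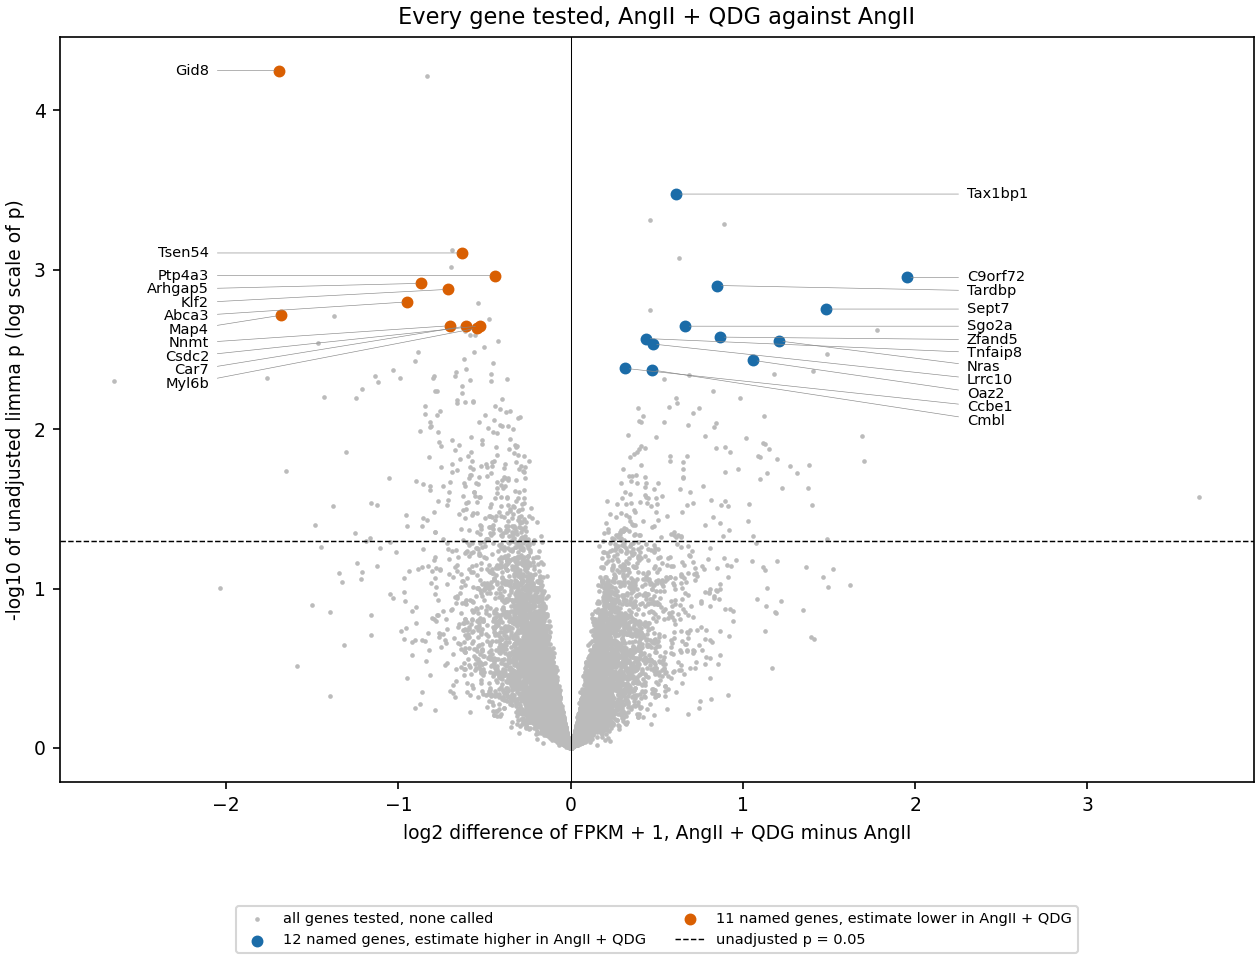
Log2 difference of FPKM + 1 between AngII+QDG and AngII (horizontal axis) against the negative log10 of the unadjusted limma p (vertical axis) for all 12245 genes, 1 point per gene. The named points are 23 of 24 genes, the 12 of smallest p in each direction with a mean of 1 FPKM or more in the higher group. Of the 23, 12 have higher and 11 lower estimates. The dashed line is the threshold on the unadjusted p, and the highest point, Gid8, has an adjusted p of 0.374.

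Technical measures of the 2 groups overlapped. If the smallest step between low values is 1 fragment, depth was 56600000 to 78300000 fragments in AngII and 51600000 to 76500000 fragments in AngII+QDG. The mitochondrial share of the named FPKM was 46.3% ± 2.72 and 48.7% ± 3.54 (SD, n = 5 each). A difference was not detected (exact two-sided permutation test, p = 0.286, adjusted p = 0.675 over 5 measures), which does not show that the groups were alike. Nuclear copies of mitochondrial genes count in this share and among the mitochondrial genes left out of the scaling. Transcripts listed at 0 made up 4.80% ± 0.88 and 5.35% ± 0.76 of the rows listed in all files, named or not (SD, n = 5, exact permutation p = 0.310, adjusted p = 0.675). Correlation of log2 values had a median of 0.958 within AngII, 0.954 within AngII+QDG and 0.956 between the groups. In Control libraries the share at 0 was 6.19 to 20%. One AngII library differed from its group: AngII 5 held the highest of the 5 AngII values for 4979 of the 12245 genes (40.7%), against 10.6 to 19.9% for each other AngII library, and had the lowest mitochondrial share of that group at 41.5%. List medians and gene estimates below that moved by over 1.5 times without it are also given without it, except list medians that lay within 0.1 of 0 both ways.

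The whole hearts carried cardiomyocyte transcripts at high level in both groups. The summed FPKM of the 9 cardiomyocyte markers listed in all files (among them Myh6, Tnnt2, Actc1 and Ryr2) was 29258 to 36058 in AngII and 26574 to 41677 in AngII+QDG. For 12 fibroblast markers the sum ran from 769 to 1146 in AngII and from 816 to 1126 in AngII+QDG. Endothelial markers (12) summed to 820 to 1158 and 734 to 1072, and smooth muscle and pericyte markers (12) to 288 to 435 and 223 to 352. The 15 macrophage markers gave 256 to 457 and 272 to 363. All these ranges overlapped between the groups. Of the 12 smooth muscle and pericyte markers 11 had estimates below 0, as had 55.1% of all genes (median -0.22, and -0.15 without AngII 5). AngII 5 was the highest AngII library for 9 of these 12. T cell markers Cd3e, Cd4 and Cd8a, fast skeletal muscle genes Myh1, Myh2 and Myh4 and the lung gene Sftpc were not among the rows listed in all files. In whole tissue, fewer cells of a type and less RNA per cell cannot be told apart.

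Gid8 had the smallest p of the comparison. It encodes a subunit of the GID/CTLH ubiquitin ligase and lies on chromosome 2 from 180710117 to 180718733 on the plus strand (GRCm38, protein-coding). Replicates 1 to 5 gave 14.4, 7.5, 5.07, 12.4 and 5.40 FPKM in AngII and 1.22, 2.07, 1.49, 1.32 and 3.87 FPKM in AngII+QDG. Every AngII+QDG heart was below every AngII heart, while Control hearts held 4.15 to 9.71 FPKM. The log2 difference was -1.69 ± 0.30 (SE), and the limma adjusted p of 0.374 did not pass. Of its 2 transcript rows, ENSMUST00000078687 averaged 7.33 FPKM in AngII and 1.24 FPKM in AngII+QDG, and ENSMUST00000029090 averaged 1.62 and 0.751 FPKM.

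Klf2, a transcription factor that endothelial cells raise under laminar flow, was lower in every AngII+QDG heart. Its 5 values were 38.3, 38.2, 56.7, 63.9 and 65.2 FPKM in AngII and 32.5, 25.7, 28.7, 35.5 and 32.0 FPKM in AngII+QDG. The groups did not overlap, with a log2 difference of -0.71 ± 0.18 (SE, limma adjusted p = 0.955). Control hearts, at 37.2 to 68.1 FPKM, overlapped the AngII hearts. The gene is on chromosome 8 from 72319033 to 72321656, and 1 transcript row carried all of its value.

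Map4, which encodes a protein that binds and stabilises microtubules, was the gene of the 23 named with the highest AngII estimate relative to Control, 1.87 (limma adjusted p = 0.0221). AngII hearts held 28.1, 24.1, 30.6, 38.9 and 41.8 FPKM, and AngII+QDG hearts 6.61, 5.92, 22.7, 5.24 and 14 FPKM. Control hearts lay between 3.40 and 18.2 FPKM. The groups with and without QDG did not overlap, and replicate 3 of AngII+QDG came closest to the AngII range. The difference was -1.68 ± 0.45 (SE, limma adjusted p = 0.955), and AngII+QDG minus Control was 0.19. A single transcript row, ENSMUST00000163979, held most of it: 18.8 to 24.6 FPKM in all 5 AngII libraries, 17.6 in AngII+QDG 3, and 0.288 to 0.630 in the other 4. Map4 has 7 transcript rows. Map4 spans 109931460 to 110083955 on chromosome 9.

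Among the other genes of smallest p with lower estimates, 4 also had no overlap. Tsen54, a subunit of the tRNA splicing endonuclease, gave 4.37 to 6.36 FPKM in AngII and 2.5 to 3.73 FPKM in AngII+QDG (log2 difference -0.63 ± 0.15). With every named transcript row in place of those listed in all files, its difference was -0.34. Ptp4a3, a protein tyrosine phosphatase, was at 145 ± 14.4 and 106 ± 12.6 FPKM (SD, n = 5), with every AngII heart above every AngII+QDG heart. Car7, a cytosolic carbonic anhydrase, had means of 4.82 ± 0.99 and 2.82 ± 0.61 FPKM, and Myl6b, an essential myosin light chain, 2.34 ± 0.58 and 1.28 ± 0.21 FPKM (SD, n = 5). For these 4 genes the limma adjusted p was 0.955.

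The other genes with lower estimates described here overlapped in at least 1 library. Arhgap5, a GTPase-activating protein, held 0.987 to 1.84 FPKM in 4 AngII libraries and 0.0874 in AngII 2, against 0.0623 to 0.324 FPKM in AngII+QDG. Without AngII 2 it was called, at -1.11 (limma adjusted p = 0.0246), against -0.87 with all libraries. AngII 2 was the AngII library that overlapped, so this call follows from the library left out and adds no support. Arhgap5 reached 0.5 FPKM only in the other 4 AngII libraries and in Control 4, at 0.581, so it passed the filter mainly through AngII. Abca3, a lipid transporter, was at 2.24 to 2.67 FPKM in AngII and at 0.230 to 0.734 FPKM in AngII+QDG apart from 2.49 in replicate 2. Nnmt, which methylates nicotinamide, had means of 2.56 ± 0.69 and 1.23 ± 0.71 FPKM, and Csdc2, an RNA-binding cold-shock domain protein, 44.7 ± 6.04 and 31.0 ± 6.62 FPKM (SD, n = 5).

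In the opposite direction Tax1bp1, an autophagy receptor that binds ubiquitin, had the smallest p. It was at 9.71, 13.8, 13.7, 13.7 and 14.1 FPKM in AngII and at 22.6, 19.8, 20.5, 16.2 and 22.8 FPKM in AngII+QDG. No libraries overlapped, and Control hearts, at 13.3 to 18.7 FPKM, overlapped both groups. The log2 difference was 0.61 ± 0.13 (SE, limma adjusted p = 0.955). Tax1bp1 is on chromosome 6 from 52713729 to 52766780, with 1 transcript row.

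Zfand5 and Tnfaip8 showed the same separation. Zfand5, a zinc finger protein that binds the proteasome, gave 25, 10.3, 22.3, 25.8 and 9.77 FPKM in AngII and 30.6, 32.1, 30.2, 31.4 and 37.2 FPKM in AngII+QDG (log2 difference 0.87 ± 0.24). The AngII+QDG hearts lay close together and the AngII hearts in 2 ranges. Tnfaip8, a gene induced by tumour necrosis factor, had means of 29.4 ± 3.49 and 40.0 ± 2.73 FPKM (SD, n = 5, log2 difference 0.44 ± 0.12). Ccbe1, a secreted protein needed for lymphatic growth, is listed only by a nonsense-mediated-decay row, which also separated, at 0.487 to 0.810 FPKM in AngII and 0.840 to 1.24 FPKM in AngII+QDG. Sgo2a, a protector of centromeric cohesion, was listed at 0 in AngII 2 and at 0.0215, 0.889, 0.845 and 0.719 FPKM in the other AngII libraries, against 1.01, 1.44, 1.58, 1.01 and 1.42 FPKM in AngII+QDG. All of these had a limma adjusted p of 0.955.

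Lrrc10, a leucine-rich repeat protein of cardiomyocytes, was at 111 to 116 FPKM in all 5 AngII hearts. In AngII+QDG 4 hearts were higher, at 155 to 190 FPKM, and replicate 1 was at 109. Nras, a small GTPase upstream of the MAP kinases, was at 4.79 to 6.29 FPKM in AngII+QDG, and in AngII 3 libraries were at 0.545 to 0.965 FPKM and the other 2 at 4.21 and 5.66. Tardbp, which encodes the RNA-binding protein TDP-43, had means of 7.58 ± 3.52 and 13.6 ± 1.22 FPKM (SD, n = 5), with AngII 2 at 13.2 inside the AngII+QDG range. Its 7 rows were unlike: the longest, ENSMUST00000084125, averaged 0.954 and 0.998 FPKM, and ENSMUST00000105699 0.739 and 0.541. ENSMUST00000095719 averaged 2.16 and 5.66 FPKM, but was listed at 0 in AngII 5 and AngII+QDG 3. The row of smallest p was a retained intron, at 0.489 and 1.28 FPKM. Sept7, a septin of the cytoskeleton, is listed only by a retained-intron row, which was at 0.0947 to 3.88 FPKM in AngII and 2.52 to 5.72 FPKM in AngII+QDG. Cmbl, a hydrolase, had means of 20.5 ± 2.29 and 29.2 ± 5.94 FPKM (SD, n = 5). C9orf72 was listed at 0 in all 5 AngII libraries, in 4 Control libraries and in AngII+QDG 5. It was at 4.58, 4.99, 3.57 and 4.65 FPKM in AngII+QDG 1 to 4. C9orf72 reached 0.5 FPKM only in these and in Control 3, at 3.27, so it passed the filter mainly through AngII+QDG. Its log2 difference was 1.95, and ran from 1.87 to 8.46 over the alternatives in which it was tested.

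Oaz2, an antizyme that marks ornithine decarboxylase for degradation, had opposite values in a pair of its transcript rows. The summed level was 22.4, 11.2, 20.7, 17.6 and 11.8 FPKM in AngII and 18.4, 47.7, 33.4, 46.1 and 36.9 FPKM in AngII+QDG (log2 difference 1.06 ± 0.31, limma adjusted p = 0.955). The protein-coding row ENSMUST00000136166 was listed at 0 in all 5 AngII libraries and in AngII+QDG 1, and at 26.2 to 31.0 FPKM in the other 4. The retained-intron row ENSMUST00000137696 ran the other way, at 5.94 to 13.1 FPKM in AngII, 11.3 FPKM in AngII+QDG 1 and 0.0119 to 0.0177 FPKM in AngII+QDG 2 to 5. AngII+QDG 1 was like the AngII libraries in both rows. In the test of transcript rows neither passed (limma adjusted p = 0.655 and 0.791).

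**Figure D2:**
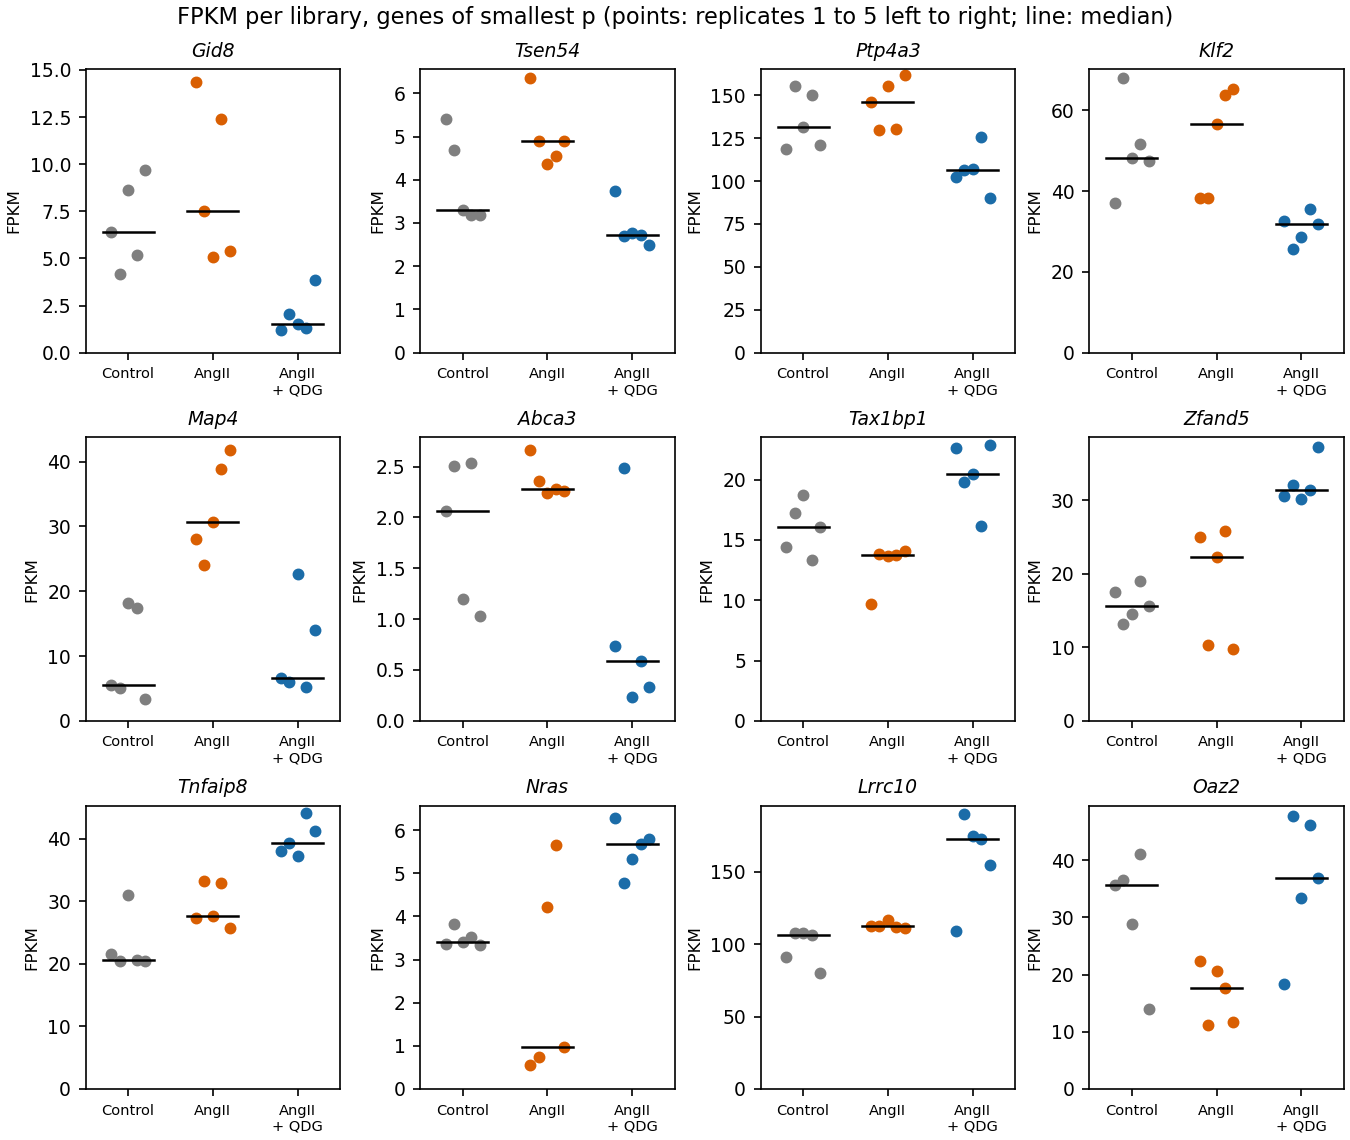
FPKM per library of 12 genes in Control, AngII and AngII+QDG hearts (5 points per group, line at the median, vertical axes from 0). They are from the 24 genes made up of the 12 of smallest p in each direction with a mean of 1 FPKM or more in the higher group. AngII+QDG lies below every AngII heart for Gid8, Tsen54, Ptp4a3, Klf2 and Map4 and above every AngII heart for Tax1bp1, Zfand5 and Tnfaip8, and 1 or more libraries overlap for Abca3, Nras, Lrrc10 and Oaz2.

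Testing transcript rows instead of genes called 3 rows, all of them assembled transcripts that the files do not tie to a gene name. The row MERGE.19046.3 was at 1.51 to 3.15 FPKM in AngII and listed at 0 in all 5 AngII+QDG libraries and 4 Control libraries (limma adjusted p = 1.29e-05). MERGE.5369.4 was listed at 0 in all AngII libraries and at 1.23 to 5.81 FPKM in AngII+QDG (limma adjusted p = 0.0101). MERGE.19703.3 was at 0.633 to 1.58 FPKM in AngII and listed at 0 in 4 AngII+QDG libraries and in every Control library (limma adjusted p = 0.0120). No row of an Ensembl transcript was called. The AngII+QDG files listed a different set of rows (31734) from the Control and AngII files (31685). Only rows in all files entered the test. The gene sums rest on the same rows, so they lack any row listed in only some files. With every named row, and rows absent from a file taken as 0, the count of called genes was also 0. The part of this difference in single genes and in the 3 called rows was not tested.

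Natriuretic peptides, the secreted hormones that a stretched heart releases, gave overlapping values. Nppa was at 262, 443, 410, 507 and 771 FPKM in AngII and 338, 211, 431, 428 and 258 FPKM in AngII+QDG. The log2 difference was -0.49 (95% interval -1.15 to 0.17, limma adjusted p = 0.999), with AngII 5 the highest of all, and -0.30 without AngII 5. Nppb ranged from 82.6 to 835 FPKM in AngII and from 74.0 to 737 FPKM in AngII+QDG, and its interval of -1.82 to 1.31 leaves changes of more than 1 log2 unit in either direction undetected. Its estimate of -0.25 turned to 0.08 without AngII 5.

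Contractile genes overlapped too. Acta1, the skeletal actin of the fetal programme, was at 371, 241, 358, 614 and 1003 FPKM in AngII and 547, 177, 399, 261 and 129 FPKM in AngII+QDG (log2 difference -0.78, 95% interval -1.65 to 0.09, limma adjusted p = 0.999), and without AngII 5 the difference was -0.50. AngII raised it over Control by 1.33 log2 units (limma adjusted p = 0.0446). The 2 highest values belonged to AngII 4 and 5, and the remaining 8 overlapped. Myh7, the slow fetal myosin heavy chain, differed by -0.08 (95% interval -0.87 to 0.71), and by 0.03 without AngII 5. Myh6, the adult fast form, differed by 0.11 (-0.48 to 0.70), and by 0.17 without AngII 5. Myh6 was at 3292 to 4315 FPKM in AngII and at 2481 to 5951 FPKM in AngII+QDG, a wider spread that enclosed the AngII range.

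Of 16 tested genes of the natriuretic and stretch programme, 0 were called, 3 reached an unadjusted p under 0.05 with lower estimates (2.43% over all genes) and 0 with higher ones (1.43% over all genes). These were Xirp2 and Ankrd23, which sit at intercalated discs and in the sarcomere's I-band, and the Z-disc protein Csrp3. Xirp2 was at 26.7 ± 3.77 FPKM in AngII and 19.3 ± 6.30 FPKM in AngII+QDG (SD, n = 5). Ankrd23 was at 375 ± 73.9 and 278 ± 74.6 FPKM. In Csrp3 most of the value stood in a retained-intron row. The list's median difference was -0.15 beside -0.02 for all genes, and 0.01 without AngII 5, which held the highest AngII value of 11 of the 16 genes. Among 19 sarcomere genes the median was -0.10. Lmod2, which nucleates actin filaments, was at 189 to 275 FPKM in AngII and 207 to 392 FPKM in AngII+QDG. Myoz2, a calcineurin-binding Z-disc protein, did not overlap, at 760 to 845 and 670 to 760 FPKM, a log2 difference of only -0.18 ± 0.10 (limma adjusted p = 0.999).

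**Figure D3:**
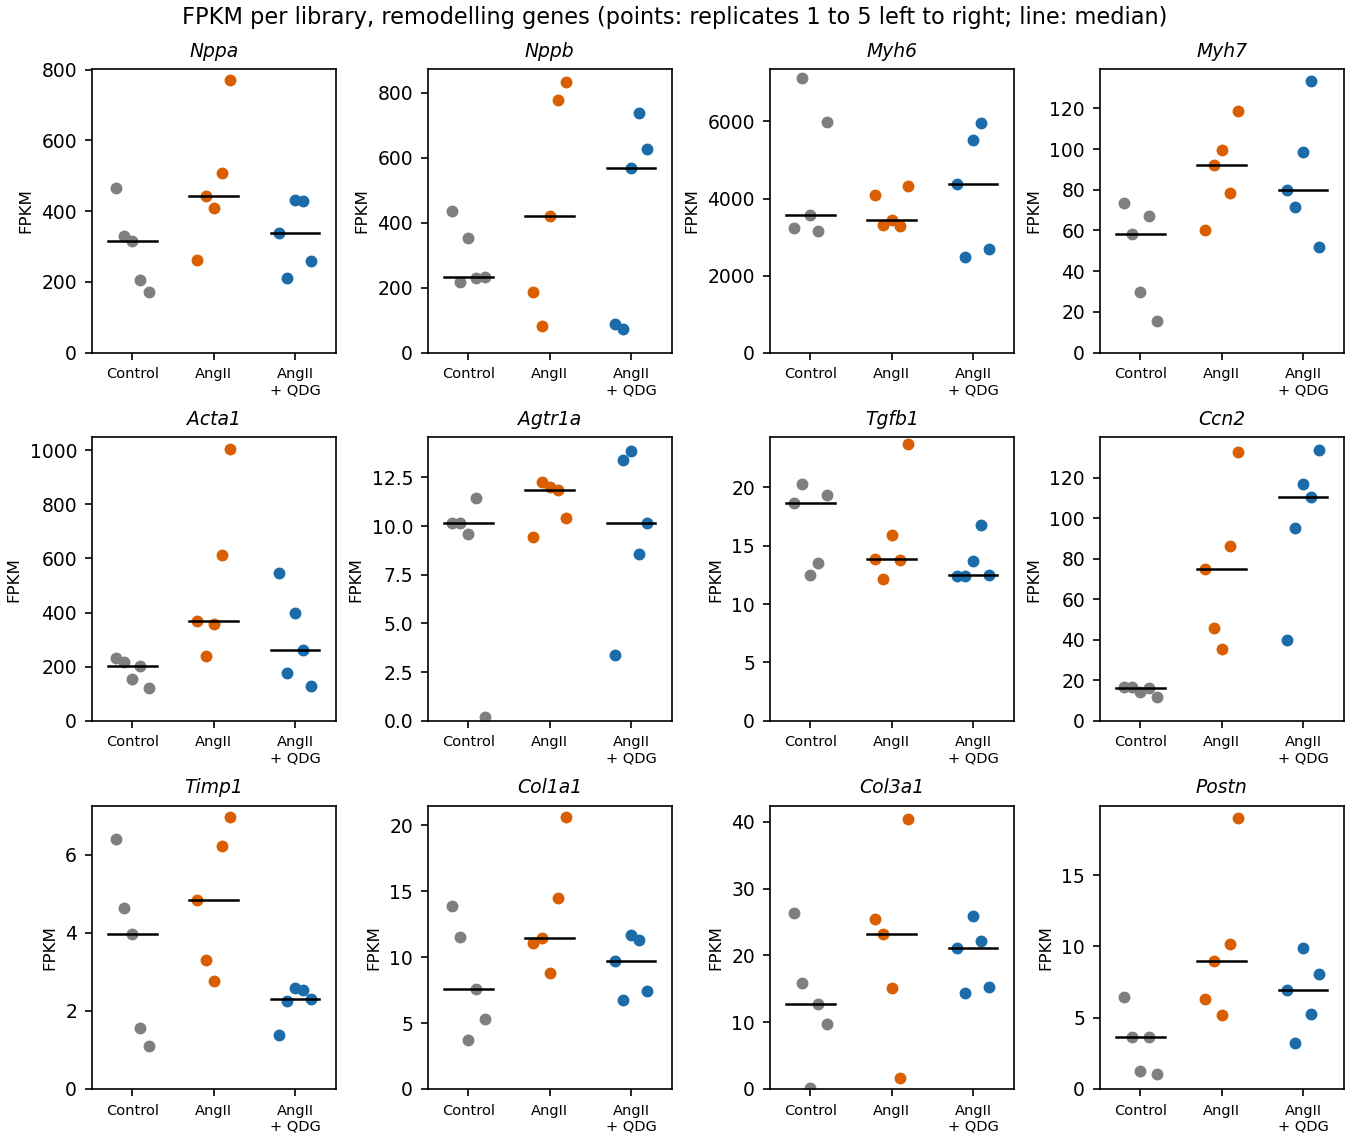
FPKM per library of 12 remodelling genes in Control, AngII and AngII+QDG hearts (5 points per group, line at the median, vertical axes from 0). Timp1 is the only one of the 12 whose AngII and AngII+QDG values do not overlap, and replicate 5, the rightmost AngII point, is the highest AngII value for Nppa, Nppb, Acta1, Ccn2, Timp1, Col1a1, Col3a1 and Postn, among others.

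Collagens, the fibres and sheets of the extracellular matrix, had the lowest median difference of the 34 pathway lists with all libraries, a place that went to the sarcomere list without AngII 5. The median of 18 tested collagen genes was -0.30 beside -0.02 for all genes. Of the 18, 13 were below 0 (55.1% of all genes) and 0 were called. An unadjusted p under 0.05 with a lower estimate was found for 2 genes, Col5a3 and Col5a2, and with a higher estimate for 0. Over all genes these shares were 2.43% and 1.43%. Col5a3 was at 3.87, 2.86, 4.49, 3.47 and 5.67 FPKM in AngII and 2.46, 2.74, 2.27, 3.29 and 2.38 FPKM in AngII+QDG (log2 difference -0.46 ± 0.18, limma adjusted p = 0.999). Only 1 AngII+QDG library, at 3.29 FPKM, reached into the AngII range. Col4a1, a chain of basement membrane collagen, was at 65.5, 54.7, 52.4, 72.3 and 102 FPKM in AngII and 65.9, 32.7, 44.8, 52.5 and 39.3 FPKM in AngII+QDG, and its partner Col4a2 had means of 59.5 ± 15.1 and 41.2 ± 9.83 FPKM (SD, n = 5). Both overlapped. Col1a1, the major fibrillar chain, was at 8.77 to 20.6 and 6.75 to 11.7 FPKM (log2 difference -0.43, 95% interval -1.07 to 0.20, and -0.27 without AngII 5). Col3a1 differed by 0.32 with an interval of -1.37 to 2.02. AngII 4 was at 1.62 FPKM and the other AngII libraries at 15 to 40.4. Control 3, whose group enters the same estimate of spread, was at 0.12 FPKM and the other Control libraries at 9.80 to 26.3. Without AngII 4 the Col3a1 estimate was -0.33, and without AngII 5 it was 0.66. Col5a2 went from -0.46 to -0.30 without AngII 5.

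AngII 5 had the highest AngII value of 15 of these 18 collagens, against 40.7% of all genes. Without it the collagen median was -0.13 and that of all genes 0.00. Relative to Control, AngII raised 7 of the 18 collagens past the threshold, where 12.1% of all genes rose, with a list median of 0.66. AngII+QDG minus Control had a median of 0.34. The 8 markers of activated fibroblasts listed in all files summed to 78.7 to 159 FPKM in AngII and 62.1 to 102 FPKM in AngII+QDG. They include Acta2, which is also a smooth muscle marker. Of the 8, 7 were tested, and AngII 5 was the highest AngII library for all 7. The part of activated fibroblasts in the collagen values was not tested.

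**Figure D4:**
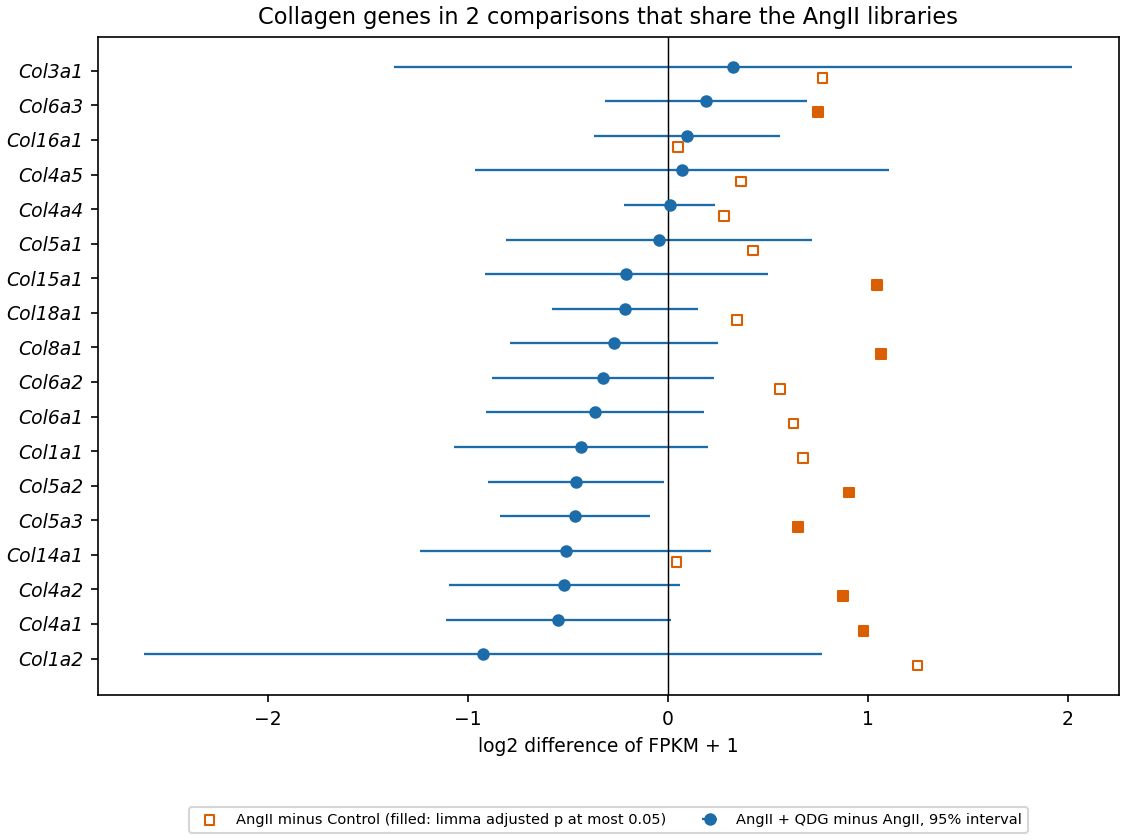
Log2 differences of FPKM + 1 for 18 collagen genes: AngII+QDG minus AngII with 95% intervals (circles) and AngII minus Control (squares, filled where the limma adjusted p was at most 0.05). The circles of 13 genes lie below 0, 16 of the 18 intervals include 0, and 7 squares are filled.

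Other matrix genes were similar in sign. Among 32 matrix proteins the median was -0.13 (-0.03 without AngII 5). An unadjusted p under 0.05 was found for 3 lower (2.43% over all genes) and 1 higher (1.43% over all genes). Mfap5, a protein of elastic microfibrils, did not overlap, at 19.6, 19.3, 20, 22.6 and 40.2 FPKM in AngII and 15.2, 10.7, 16.8, 15.3 and 13.4 FPKM in AngII+QDG (log2 difference -0.69 ± 0.26, limma adjusted p = 0.999). Fbn1, the fibrillin of the same fibres, was at 5.29 to 12.2 and 3.54 to 6.01 FPKM. Sparc, a collagen-binding glycoprotein, was at 200 ± 77.8 and 131 ± 26.3 FPKM, a difference of -0.54 that was -0.35 without AngII 5. The gene of the list with a higher estimate was Ltbp1, which stores latent TGF-beta in the matrix, at 2.45 to 3.31 FPKM in AngII and 3.05 to 4.69 FPKM in AngII+QDG. Postn, a matricellular product of activated fibroblasts, was at 5.16 to 19.0 and 3.25 to 9.89 FPKM (log2 difference -0.46, 95% interval -1.28 to 0.37, and -0.21 without AngII 5).

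Timp1, the inhibitor of matrix metalloproteinases, was lower in every AngII+QDG heart. Its values were 4.85, 3.31, 2.76, 6.23 and 6.97 FPKM in AngII and 1.37, 2.26, 2.58, 2.53 and 2.3 FPKM in AngII+QDG. The groups did not overlap, the log2 difference was -0.82 ± 0.32 (95% interval -1.50 to -0.13), and limma gave an unadjusted p of 0.0227 and an adjusted p of 0.999. Control hearts ranged from 1.1 to 6.41 FPKM, and AngII minus Control was 0.46 (limma adjusted p = 0.339). Of 26 tested enzymes and inhibitors of the matrix, 22 were below 0 (55.1% of all genes), with a median of -0.14 and -0.04 without AngII 5. AngII 5 was the highest AngII library for 22 of the 26, against 40.7% of all genes. Lysyl oxidases, which crosslink collagen, included Loxl1 at 16.3 ± 5.83 and 11.4 ± 2.44 FPKM (SD, n = 5) and Loxl2 at 3.83 ± 1.62 and 1.99 ± 0.96 FPKM. The gelatinase Mmp2 had means of 18.4 ± 6.21 and 13.1 ± 2.07 FPKM. All 3 overlapped, and AngII 5 was the highest library for each. Without it Loxl1 went from -0.45 to -0.28 and Mmp2 from -0.42 to -0.25.

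Ccn2, a fibrogenic matricellular factor that AngII raised over Control by 2.10 log2 units (limma adjusted p = 0.00707), had a higher estimate with QDG. AngII hearts were at 74.9, 45.9, 35.3, 86.3 and 133 FPKM and AngII+QDG hearts at 39.9, 94.9, 117, 110 and 134 FPKM. The difference was 0.44 (95% interval -0.30 to 1.18, limma adjusted p = 0.999), and 0.68 without AngII 5. Control hearts were at 11.7 to 16.7 FPKM, below all 10. In the TGF-beta list of 25 genes the median was -0.10, and -0.04 without AngII 5, which was the highest AngII library for 19 of them. At the unadjusted threshold 1 gene had a p under 0.05, with a lower estimate (2.43% over all genes). This was the activin-binding Fstl3, at 5.28 ± 1.42 and 3.35 ± 0.75 FPKM (SD, n = 5). Tgfb1 itself differed by -0.18 (95% interval -0.56 to 0.20), and by -0.04 without AngII 5.

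The angiotensin axis had a median of -0.14 over 20 genes, -0.03 without AngII 5, and 0 reached an unadjusted p under 0.05. The receptor gene Agtr1a was at 9.44 to 12.3 FPKM in AngII. In AngII+QDG it was at 3.38, 13.4, 13.9, 8.56 and 10.1 FPKM. The interval for the difference was -1.45 to 0.88. Its estimate of spread includes the Control hearts, where Control 5 was at 0.176 FPKM and the other libraries at 9.58 to 11.4. Edn1, the precursor of the vasoconstrictor endothelin, had means of 1.47 ± 0.55 and 2.06 ± 0.36 FPKM (SD, n = 5). Nr3c2, the mineralocorticoid receptor, was at 0.315 to 3.03 and 1.87 to 2.77 FPKM. Rgs2, which shortens signals of the Gq-coupled receptor, was at 5.84 to 12.1 and 5.05 to 8.62 FPKM.

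Immediate early genes are switched on within minutes of a stimulus. Of 26 tested, 4 had an unadjusted p under 0.05 with lower (2.43% over all genes) and 1 with higher estimates (1.43% over all genes). Klf2 was 1 of the 4. The median was -0.11 (0.01 without AngII 5). Dusp1, a phosphatase that switches off MAP kinases, was at 8.02, 7.34, 18.2, 16.3 and 18.0 FPKM in AngII and 5.18, 5.55, 5.41, 7.61 and 8.77 FPKM in AngII+QDG (log2 difference -0.89 ± 0.25, limma adjusted p = 0.955). The AngII hearts split into 2 low and 3 high, and only the low ones overlapped. A protein-coding and a retained-intron row held similar parts of the sum. Klf4, a relative of Klf2, was at 8.63 to 18.9 FPKM in AngII and at 12.7, 6.95, 3.06, 3.86 and 3.32 FPKM in AngII+QDG (-1.25 ± 0.39, limma adjusted p = 0.999). AngII+QDG 1 was the library that overlapped. Klf10, a TGF-beta-inducible factor, had the higher estimate, at 2.94 ± 0.50 and 3.92 ± 0.67 FPKM (SD, n = 5). Fos was at 0.337 to 1.12 and 0.184 to 0.588 FPKM (log2 difference -0.23, 95% interval -0.56 to 0.10, and -0.13 without AngII 5). Il6 was not among the rows listed in all files.

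In kinase cascades downstream of growth signals the median was -0.02 over 32 MAP kinase genes and -0.01 over 29 genes of PI3K, AKT and insulin signalling, with 0 genes in either list at an unadjusted p under 0.05. Map2k7, an activator of JNK, did not overlap, at 5.11 to 7.06 and 7.56 to 14.4 FPKM (log2 difference 0.69 ± 0.34, limma adjusted p = 0.999). Mapk3, which encodes ERK1, was at 30.8 to 45.2 and 23.4 to 32.7 FPKM.

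FoxO and atrophy genes had a median of 0.11 over 22 genes, 0.01 without AngII+QDG 1. At an unadjusted p under 0.05, 4 had higher (1.43% over all genes) and 3 lower estimates (2.43% over all genes). Sesn1, a sestrin that restrains mTORC1, was at 34.3, 45.0, 36.9, 38.2 and 34 FPKM in AngII and 43.8, 52.9, 48.7, 45.8 and 62.9 FPKM in AngII+QDG (log2 difference 0.42 ± 0.14, limma adjusted p = 0.999). Only AngII 2 overlapped. Zbtb16, a glucocorticoid-inducible transcription factor, was at 1.04 to 2.94 FPKM in AngII and at 15.7, 2.38, 1.96, 4.3 and 13 FPKM in AngII+QDG, so 2 libraries carried its mean. Ddit4, another brake on mTORC1, had a lower estimate, at 60.3 ± 19.2 and 34.4 ± 12.5 FPKM (SD, n = 5). The cell cycle inhibitor Cdkn1a did too, at 37.9 ± 10.7 and 23.7 ± 11.0 FPKM. Both stand also in the glucocorticoid list, with a median of -0.20 (-0.13 without AngII 5). There 5 of 18 genes had lower and 1 a higher estimate at an unadjusted p under 0.05, beside 2.43% and 1.43% over all genes. Lcn2, a secreted iron-siderophore carrier in that list, was at 15.5 ± 5.88 and 8.22 ± 2.35 FPKM (SD, n = 5).

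Hmox1, which degrades haem and answers oxidative stress, was lower in every AngII+QDG heart. AngII hearts held 7.21, 9.49, 6.54, 16.5 and 6.75 FPKM, and AngII+QDG hearts 4.67, 4.42, 4.66, 4.61 and 4.35 FPKM. The log2 difference was -0.81 ± 0.27 (limma unadjusted p = 0.00906, adjusted p = 0.999), and AngII was above Control by 1.18 (limma adjusted p = 0.0199). Nqo1, a quinone reductase, also did not overlap, at 27.8 to 30.4 and 23.8 to 27.1 FPKM, a difference of -0.16 ± 0.08. Over the 33 genes of the antioxidant list the median was -0.05. Hmox1 was the 1 gene at an unadjusted p under 0.05 (lower in 2.43% of all genes).

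Heat shock genes had a median of -0.12 over 26 genes (-0.06 without AngII 5). At an unadjusted p under 0.05, 2 had lower (2.43% over all genes) and 1 a higher estimate (1.43% over all genes). Hspb1, a small chaperone, was at 307 to 419 and 233 to 315 FPKM (log2 difference -0.34 ± 0.11). Hspd1, the mitochondrial chaperonin, was at 29.0, 31.1, 20.3, 93.3 and 23.1 FPKM in AngII and 47.5, 114, 42.8, 105 and 79.9 FPKM in AngII+QDG (1.1 ± 0.42, limma adjusted p = 0.999). It would not have overlapped but for AngII 4.

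**Figure D5:**
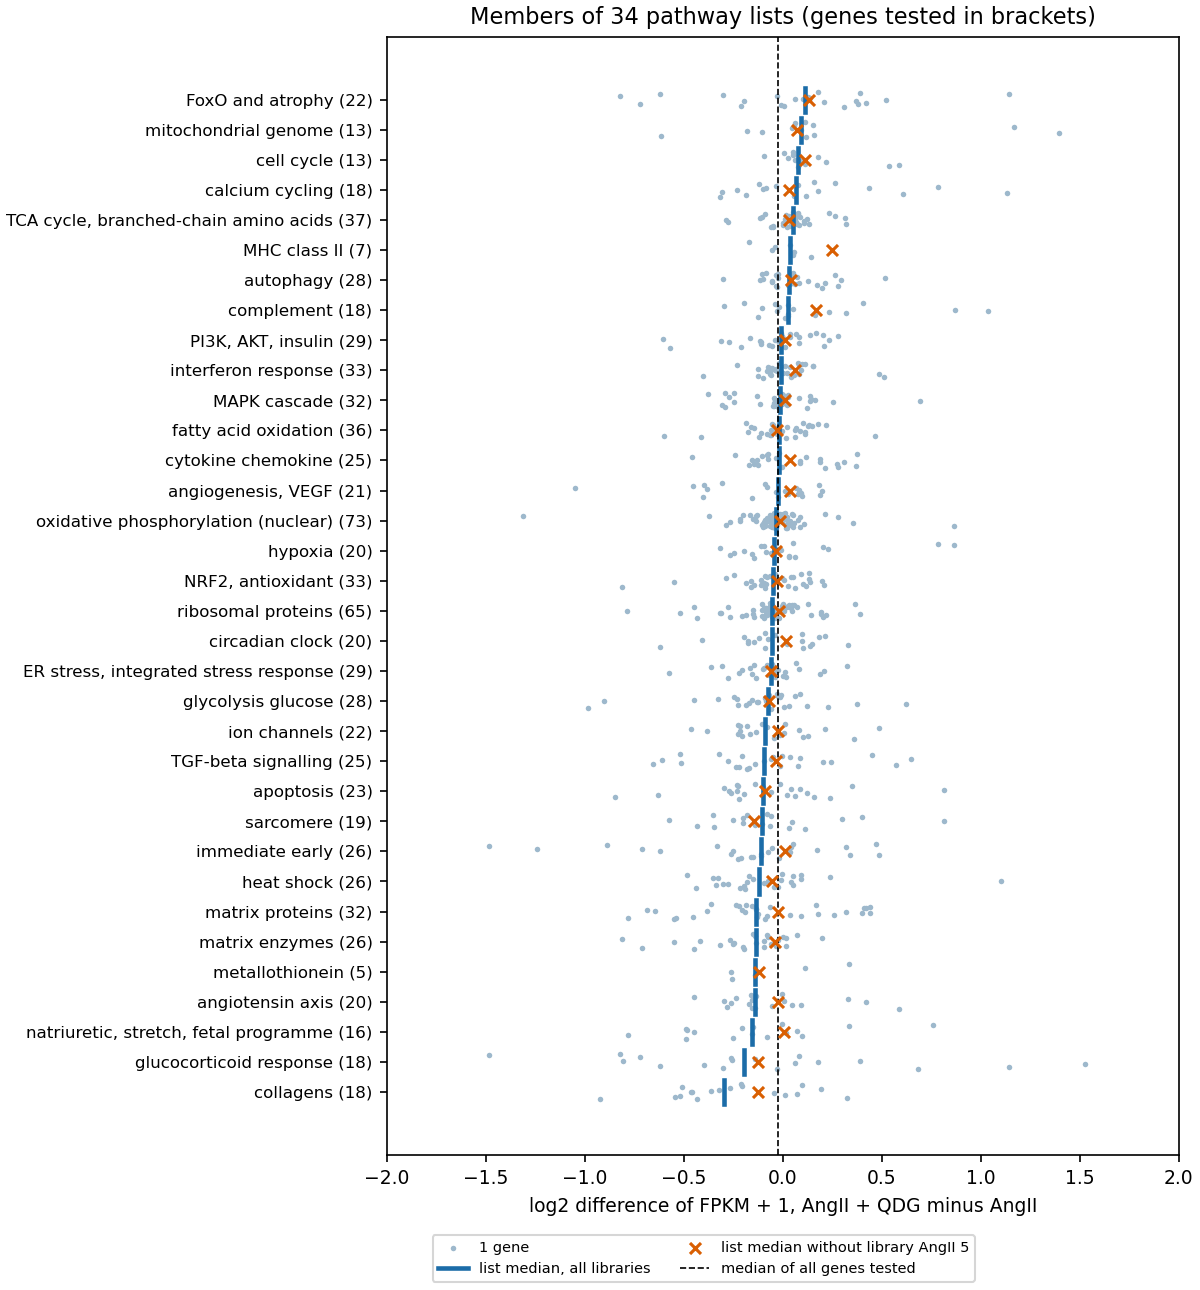
Log2 differences of FPKM + 1, AngII+QDG minus AngII, of every tested member (points) of 34 pathway lists, with list medians over all libraries (bars) and without AngII 5 (crosses). The dashed line is the median of all genes, -0.02, and medians run from -0.30 for collagens to 0.11 for FoxO and atrophy genes.

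Energy metabolism lists had medians close to that of all genes. They were -0.03 over 73 nuclear genes of oxidative phosphorylation, -0.02 over 36 of fatty acid oxidation, 0.05 over 37 of the TCA cycle and branched-chain amino acid breakdown and -0.08 over 28 of glycolysis. At an unadjusted p under 0.05 stood 1 gene with a lower and 1 with a higher estimate (2.43% and 1.43% over all genes). The lower was the malate dehydrogenase Mdh2, at 504 to 628 and 395 to 562 FPKM. The higher was Pfkfb2, the heart form of the enzyme that makes the glycolytic activator fructose 2,6-bisphosphate. Pfkfb2 was at 2.91, 7.35, 3.84, 5.01 and 4.21 FPKM in AngII and 8.36, 4.66, 7.21, 9.03 and 8.73 FPKM in AngII+QDG (log2 difference 0.62 ± 0.20, limma adjusted p = 0.999). AngII 2 and AngII+QDG 2 were the libraries that crossed, and most of the value stood in rows that are not protein-coding. Fabp3, the fatty acid carrier of cardiomyocytes, was at 4481 to 4961 and 4201 to 4584 FPKM. Among 65 ribosomal protein genes the median was -0.05 (-0.02 without AngII 5) and 2, Rpl3 and Rpl27, had lower estimates at an unadjusted p under 0.05, a share of 3.08% beside 2.43% over all genes. Most of the Rpl3 value stood in rows that are not protein-coding. Reads of such families can be split with pseudogene copies, so single members are uncertain.

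Genes of the mitochondrial genome had a median of 0.09 over 13 genes and 0 at an unadjusted p under 0.05. The complex I subunit mt-Nd4 and the cytochrome oxidase subunit mt-Co3 were at 175 and 212 FPKM in AngII+QDG 3. In the other 9 libraries of the comparison they did not exceed 0.450 and 1.29 FPKM. Nuclear copies of mitochondrial genes can share their reads, so these values are uncertain.

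The median was -0.02 over 25 cytokine and chemokine genes and 0.02 over 18 complement genes. Without AngII 5, the highest AngII library for 20 and 13 of them, the medians were 0.03 and 0.16. There was 1 lower and 1 higher estimate at an unadjusted p under 0.05 in the first and 1 higher in the second. Over all genes 2.43% were lower and 1.43% higher at that threshold. Cfd, the complement factor D that adipocytes secrete, did not overlap, at 0.383, 0.480, 0.417, 0.625 and 0.665 FPKM in AngII and 1.37, 1.21, 2.76, 1.82 and 4.14 FPKM in AngII+QDG (log2 difference 1.04 ± 0.43, limma adjusted p = 0.999). Control hearts ranged from 0.126 to 9 FPKM, enclosing both groups. Cfd is itself 1 of 8 adipocyte markers, of which Adipoq, Plin1, Retn, Lep and Cidec were not among the rows listed in all files. The 3 listed markers, Cfd, Fabp4 and Adig, summed to 565 to 821 FPKM in AngII and 515 to 794 FPKM in AngII+QDG. Fabp4 is also 1 of the endothelial markers, so this sum does not measure adipocytes alone. The part of adipocytes in the Cfd difference was not tested. Tnfrsf12a, the TWEAK receptor, was at 117 to 211 and 86.0 to 132 FPKM (-0.46 ± 0.19), after a rise of 1.48 in AngII over Control (limma adjusted p = 0.00168). The interferon-inducible chemokine Cxcl9 was at 0.728 to 1.57 and 1.11 to 1.97 FPKM.

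Vascular growth genes had a median of -0.02 over 21 genes, with 2 lower estimates at an unadjusted p under 0.05 (2.43% over all genes). Pgf, placental growth factor, was at 3.30 to 4.87 and 1.79 to 4.34 FPKM. Vegfc, which drives lymphatic growth, was at 2.5 to 5.13 and 1.66 to 2.92 FPKM. Dll4, the Notch ligand of arterial and tip cells, divided the AngII+QDG hearts: 6.20 and 6.19 FPKM in replicates 1 and 2, 1.14, 1.07 and 0.765 FPKM in the other 3, against 4.67 to 8.55 FPKM in AngII (-1.05 ± 0.49, limma adjusted p = 0.999).

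Membrane excitability and calcium handling were described by 22 and 18 genes, with medians of -0.09 and 0.07. Of the ion channel genes 2 had higher estimates at an unadjusted p under 0.05 (1.43% over all genes). Kcnd2, a pore subunit of the transient outward potassium current, was at 1.56 ± 0.44 and 2.27 ± 0.52 FPKM (SD, n = 5), and the sodium channel beta subunit Scn4b was at 4.43 ± 1.22 and 6.53 ± 1.24 FPKM. Kcnh2, the pore of the rapid delayed rectifier, had a lower estimate, at 12 to 17 and 8.76 to 13.1 FPKM. Of the calcium genes 0 had an unadjusted p under 0.05. Cacnb2, a calcium channel beta subunit, varied within both groups, at 0.167, 6.49, 0.273, 0.265 and 0.277 FPKM in AngII and 13.6, 0.290, 0.145, 4.97 and 6.04 FPKM in AngII+QDG.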

How the data were processed

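RNA of whole mouse hearts was depleted of rRNA and sequenced, per the labels' protocols. The FPKM values per transcript are those the authors deposited for every library, and this unit was read from the values themselves, since the headers do not state one. Build GRCm38 and limma are named in the submitters' processing notes, while the sources used here name no aligner or quantifier. Files listed 31685 (Control, AngII) or 31734 (AngII+QDG) rows, 29996 in all files. Of 22488 Ensembl rows in all files 22471 were named with GENCODE M21 and summed to 12387 genes. Another 7508 assembled rows carry no gene name. No libraries were identical (0 pairs).

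Genes reaching 0.5 FPKM in 5 or more libraries entered limma 3.58.1 (R 4.3.3, trend, robust variance) as log2(FPKM + 1), all 15 libraries in 1 fit with 12 residual degrees of freedom, adjusted by Benjamini-Hochberg over 12245 genes at 0.05. Differences are on this scale, which understates those of low genes. Library measures were compared by exact two-sided permutation over 252 arrangements. FPKM times length fell on whole steps of each library, from which depth and fragment numbers for voom were recovered. The share of values that came out whole, to within 0.1, was 97.0 to 97.2% by library (20% if steps were random). Precision of every value is limited by 5 hearts per group.

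Members, gene lists and tests were chosen with earlier results of these data known. Named genes were the 12 of smallest p in each direction averaging 1 FPKM or more in the higher group (predicted and clone-based models and pseudogenes left out), since none was called, 14 preset genes, and up to 4 members of smallest p of each pathway list described. Naming the top genes of cell type lists, also planned, was not done. A few of the genes so chosen are not reported here. Which lists were described was decided after their values were seen. Alternatives covered the pseudocount, filter, robust variance, scaling, a covariate for the balance of short and long transcripts, a fit of the 2 groups, replicate block, sample weights, transcript rows, voom and each library left out. Control 3 and 5 left out, and genes with a library at 0 left out, were added after seeing the data. The steps were tested on simulated data. Python 3.11.15, numpy 2.4.6, pandas 2.3.3, scipy 1.17.1 and matplotlib 3.10.9 made tables and plots.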

Additional observations from a re-analysis of the deposited data

Results flagged for a closer look

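The named genes and the library measures were screened in both groups for a library whose gap to its nearest neighbour exceeded 0.71 of the group's range. This is Dixon's 95% value for 5 samples. Genes were screened as log2(FPKM + 1), though FPKM is given below, and library measures were screened untransformed. Of 268 groups screened, 23 passed, and chance alone flags about 1 in 20. Such genes were chosen for small p or list membership, and several values are near 0.

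In AngII, replicate 1 was lowest for Tax1bp1 at 9.71 FPKM. Replicate 2 was lowest for Calm2 (calmodulin) at 7.46 FPKM and highest for Cacnb2 at 6.49, Ltbp1 at 3.31, Aldh6a1 (an enzyme of valine breakdown) at 67.2 and the endothelial receptor Tie1 at 35.5 FPKM. Replicate 3 was highest for Lrrc10 at 116 and for Nqo1 at 30.4 FPKM, both narrow groups. Replicate 4 was lowest for Klf10 at 2.09 and highest for Hspd1 at 93.3 FPKM. Replicate 5 was highest for Myl6b at 3.37, Mfap5 at 40.2, Loxl2 at 6.70 and Rpl27 at 366 FPKM, and its mitochondrial share of named FPKM was the lowest at 41.5%.

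In AngII+QDG, replicate 1 was lowest for Ccn2 at 39.9, Timp1 at 1.37 and the fatty acid ligase Acsl1 at 52.3 FPKM, and highest for Tsen54 at 3.73 FPKM. Replicate 3 was highest for mt-Nd4 at 175 and mt-Co3 at 212 FPKM. Replicate 5 was listed at 0.0 for C9orf72 and was lowest for Rpl7 at 147 FPKM.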

How the results depend on the processing

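The count of called genes was 0 under each alternative at gene level except when 1 library was left out, where it ranged from 0 to 1, and 3 in the test of transcript rows. Without AngII 2 the gene was Arhgap5, without AngII 3 Plagl2 (-0.87, limma adjusted p = 0.0488, listed at 0 in AngII 3 and in 4 AngII+QDG libraries) and without AngII+QDG 3 the zinc transporter gene Slc39a11 (-0.98, limma adjusted p = 0.0134). Slc39a11 was listed at 0 in 4 AngII+QDG libraries and at 0.640 FPKM in AngII+QDG 3, against 0.686 to 1.29 FPKM in AngII, and had an adjusted p of 0.374 with all libraries. Plagl2 and Slc39a11 were named after their values were seen. For each of these genes the library left out was the least like its group, so the calls follow from that choice and add no support. The 472 genes at an unadjusted p under 0.05 became 778 in a fit of the 2 groups alone, 881 with sample weights, 754 without Control 3 and Control 5, 1326 rows in the transcript test, and 372 to 660 with 1 library left out. Their share with higher estimates was 37.1%, and 51.4% without AngII 5, 55.2% with mitochondrial genes left out and 44.5% after quantile normalization, and the cause was not tested.

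With the replicate number as a block 0 genes were called, 445 at an unadjusted p under 0.05 (610 in a fit of the 2 groups). The numbers share no origin in the labels, same-numbered libraries correlated at -0.0225 to 0.0052 in their deviations, and 0 of 5 correlated best with their own number.

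Signs of small estimates turned. Myh6 was -0.33 with voom and Myh7 0.0099 with sample weights. With 1 library left out Myh6 ran from -0.038 to 0.28, Myh7 from -0.25 to 0.087, Nppb from -0.75 to 0.23, Agtr1a from -0.42 to 0.016 and Col3a1 from -0.33 to 0.66. Differences in library measures ran from -8.21 to -1.98 in depth (in units of 1000000 fragments), 0.26 to 0.83 percentage points of rows at 0, -0.056 to 0.0038 in the log2 balance of short against long transcripts, 1.15 to 3.58 percentage points of mitochondrial share and -1284 to 777 FPKM of globin. List medians moved with mitochondrial genes left out for autophagy (0.08, from 0.03) and the antioxidant list (0.0037, from -0.05), and that of FoxO genes was 0.011 without AngII+QDG 1.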
